A study of Mus musculus with 16 samples.

Results

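Each condition of this mouse series was sequenced with 2 kinds of library, and the 8 aorta libraries allow those kinds to be set side by side in 1 tissue. They are 8 of the 16 libraries of the series. Their columns in the deposited count table carry a suffix, and the members were chosen by it: 4 libraries with the suffix n (n1 and n2, vehicle and E2) and 4 with the suffix o (o1 and o2, vehicle and E2). The comparison asks which classes of transcript differ between the n and the o libraries of the same tissue and treatment. It compares preparations and is no measure of a biological condition.

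All aortas came from wild-type female C57BL/6 mice, ovariectomized at 6 to 7 weeks of age and killed 1 week later. Every animal, vehicle controls included, was therefore without ovarian hormones. Aortas stood ex vivo in DMEM, a culture medium, and received either 10 nM of the estrogen 17β-estradiol (E2) for 4 h or its solvent ethanol (vehicle), which gave 4 libraries per treatment, 2 of each kind. Per the labels, 2 libraries of each group were made from 50 ng of RNA with the Ovation kit, which amplifies cDNA with primers chosen to reduce ribosomal RNA. One was run on a Genome Analyzer and the other on a HiSeq instrument. For the remaining 2, the TruSeq kit selected poly-A RNA out of 600 ng from a single aorta. The series text gives 4 mice per replicate, which does not cover the single-aorta libraries. No label says whether o and n stand for these kits, or which letter would be which, so the kinds are called n and o throughout. What differs between the kinds beside the suffix (kit, RNA input, pooling of animals, preparation) cannot be told apart in this comparison, and the labels tie no column to an instrument. Fewer cells of a type and less RNA per cell cannot be told apart either, since the whole vessel wall was sequenced.

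Ribosomal RNA makes up most of the RNA of a cell, and library kits remove it in different ways. Selection with oligo-dT keeps RNAs with a poly-A tail, which most mRNAs and many long non-coding RNAs carry. Replication-dependent histone mRNAs end in a stem-loop in place of that tail, and small nucleolar RNAs (snoRNAs, which guide the modification of ribosomal RNA) are cut from introns of host genes and have no tail. Amplification and fragmentation steps can also treat GC-rich, AT-rich, short and long molecules differently.

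Between 6042073 and 19823982 reads per library were counted to genes. Reads that the counting assigned to no gene made up 70.6% to 73.6% in the o libraries and 52.9% to 64.7% in the n libraries. The shares are of reads assigned to 1 gene, to none or to more than 1. The means were 72.1% ± 1.6 in o and 57.1% ± 5.3 in n (SD, n = 4 each; exact two-sided permutation p = 0.0286, the smallest that 4 against 4 allows; 0.0429 after Benjamini-Hochberg adjustment over 3 shares). The strand setting of the counting is not given, so where the reads assigned to no gene lie is not known. Reads that fell on more than 1 gene were also split by kind, at 0.0513% to 0.0704% in o and 0.421% to 0.523% in n (exact permutation p = 0.0286, adjusted 0.0429). The vehicle n2 library stood somewhat apart: it had the highest share assigned to no gene among the n libraries and the fewest gene counts of them, 8114128. Where a result rests on it, its values are given. The labels do not tie a column to its animals, so p-values measure the spread between these libraries, which may be technical. The permutation tests take the 8 libraries as independent, which may overstate the number of independent values. Shares assigned to no gene went together by suffix in o (vehicle and E2 at 73.6% and 73.3% in o1, 70.6% and 70.7% in o2). They did so less in n (52.9% and 54.4% in n1, 64.7% and 56.4% in n2).

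The smooth muscle marker Acta2 fits the label of the tissue in both kinds. Acta2, the smooth muscle actin of the vessel wall, was at 2816 to 7580 CPM (counts per 1000000 reads counted to genes, scaled by TMM, edgeR's factor that sets most genes level between libraries) in the o libraries and 3698 to 5397 CPM in the n libraries. Its difference between kinds was -0.12 ± 0.34 (log2, n minus o, ± SE), and it did not pass the test (edgeR quasi-likelihood, Benjamini-Hochberg adjusted p = 0.76). Alb, the serum albumin mRNA of hepatocytes, was counted as well, at 62.0 to 379 CPM in o and 22.0 to 50.5 CPM in n. For scale, the endothelial marker Pecam1 was at 287 to 518 CPM in o and 210.4 to 269 CPM in n. The source of the Alb reads was not tested.

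The kinds of library differed for most genes. Of 13698 genes tested, 4514 were higher in n and 3846 lower at an adjusted p under 0.05 and a log2 difference over 1. That is 61% of all genes tested, 33% higher and 28.1% lower, and 777 of them differed by more than 16-fold (610 higher in n, 167 lower). For 9193 genes, 67.1% of those tested, the CPM of the n and o libraries did not overlap at all. Within a kind, 615 genes (4.49%) passed the same thresholds between o2 and o1, and 3 genes (0.0219%) between n2 and n1. Those fits set 2 libraries against 2 and have less power, so the counts do not compare the size of the differences. The median difference of all genes was 0.13. Without a scaling factor it was 0.89, and the calls became 6402 higher and 2237 lower, so the balance between higher and lower calls depends on the scaling. Medians of gene lists are therefore given relative to the median of all genes tested.

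The genes with the greatest differences were near absent from 1 kind of library and abundant in the other. Hnrnpa0, an RNA-binding protein encoded in a single exon, was at 0.208 and 0.267 CPM in vehicle o1 and o2 and at 0.182 and 0.616 CPM in E2 o1 and o2. In the n libraries it was at 250.1 and 376 CPM with vehicle (n1, n2) and 240.5 and 287 CPM with E2. The groups are far apart, and the difference of 9.64 ± 0.38 passed the test (edgeR, adjusted p = 6.4e-08). Cebpb, a transcription factor of inflammation and fat cell development, was at 0, 0.334, 0.365 and 0.528 CPM in the o libraries, against 225, 304, 266 and 295 CPM in n (9.58 ± 0.39). Clec3b, the plasminogen-binding protein tetranectin, had 0.365 to 0.869 CPM in o and 246 to 407 CPM in n (8.91 ± 0.34). All n libraries were above all o libraries for each of these genes.

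In the other direction, Gtf2a1, a subunit of the general transcription factor TFIIA, was at 358 and 537 CPM in vehicle o1 and o2 and 355 and 611 CPM in E2 o1 and o2. It was at 3.37, 4.09, 3.88 and 3.58 CPM in the n libraries, a difference of -6.97 ± 0.30 (edgeR, adjusted p = 8.2e-08). Lin7c, a scaffold protein of cell junctions, was at 696 to 1490 CPM in o and 8.47 to 20.7 CPM in n (-6.24 ± 0.41). Rab8b, a small GTPase of vesicle traffic, differed by -6.93 ± 0.54, and it also differed within the o libraries: 1017 and 766 CPM in o1 against 250.4 and 322 CPM in o2. Tet1, an enzyme that oxidizes methylated cytosine in DNA, was at 74.6 to 162 CPM in o and 1.24 to 1.58 CPM in n (-6.26 ± 0.31). Npm1, a nucleolar chaperone, was steady within each kind, at 3129 to 3304 CPM in o and 57.1 to 81.2 CPM in n (-5.65 ± 0.23). Npm1 has many processed copies in the genome, so the reads assigned to it are uncertain.

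Coding sequences of 6 of these genes are shown because their base composition differs between the directions. Each line holds 90 coding bases whose GC content is nearest that of the gene's whole coding sequence, read from the GENCODE M21 transcripts (GRCm38), with G and C in capitals. The first 3 genes were higher in the n libraries and the last 3 were lower.
Hnrnpa0: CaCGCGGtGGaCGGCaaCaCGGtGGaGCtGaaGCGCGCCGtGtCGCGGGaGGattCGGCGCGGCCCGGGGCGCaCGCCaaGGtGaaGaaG
Cebpb: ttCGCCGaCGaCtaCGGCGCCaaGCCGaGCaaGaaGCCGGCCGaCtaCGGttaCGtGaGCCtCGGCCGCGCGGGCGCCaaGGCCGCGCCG
Clec3b: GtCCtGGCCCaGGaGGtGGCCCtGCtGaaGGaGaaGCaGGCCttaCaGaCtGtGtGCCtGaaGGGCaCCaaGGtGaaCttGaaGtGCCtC
Gtf2a1: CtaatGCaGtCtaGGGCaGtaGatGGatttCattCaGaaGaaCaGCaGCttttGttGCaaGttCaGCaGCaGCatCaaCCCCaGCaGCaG
Rab8b: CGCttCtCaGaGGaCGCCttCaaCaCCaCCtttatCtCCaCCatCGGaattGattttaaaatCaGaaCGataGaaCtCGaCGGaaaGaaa
Lin7c: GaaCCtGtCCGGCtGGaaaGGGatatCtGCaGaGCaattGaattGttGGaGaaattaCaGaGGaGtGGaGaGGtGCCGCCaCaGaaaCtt
The whole coding sequences hold 71.9% G and C in Hnrnpa0, 73.4% in Cebpb and 60.1% in Clec3b. They hold 48.1% in Gtf2a1, 43.2% in Rab8b and 48.4% in Lin7c. The longest annotated transcripts also differ, from 992 bases (Clec3b) to 6064 bases (Gtf2a1).

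**Figure D1:**
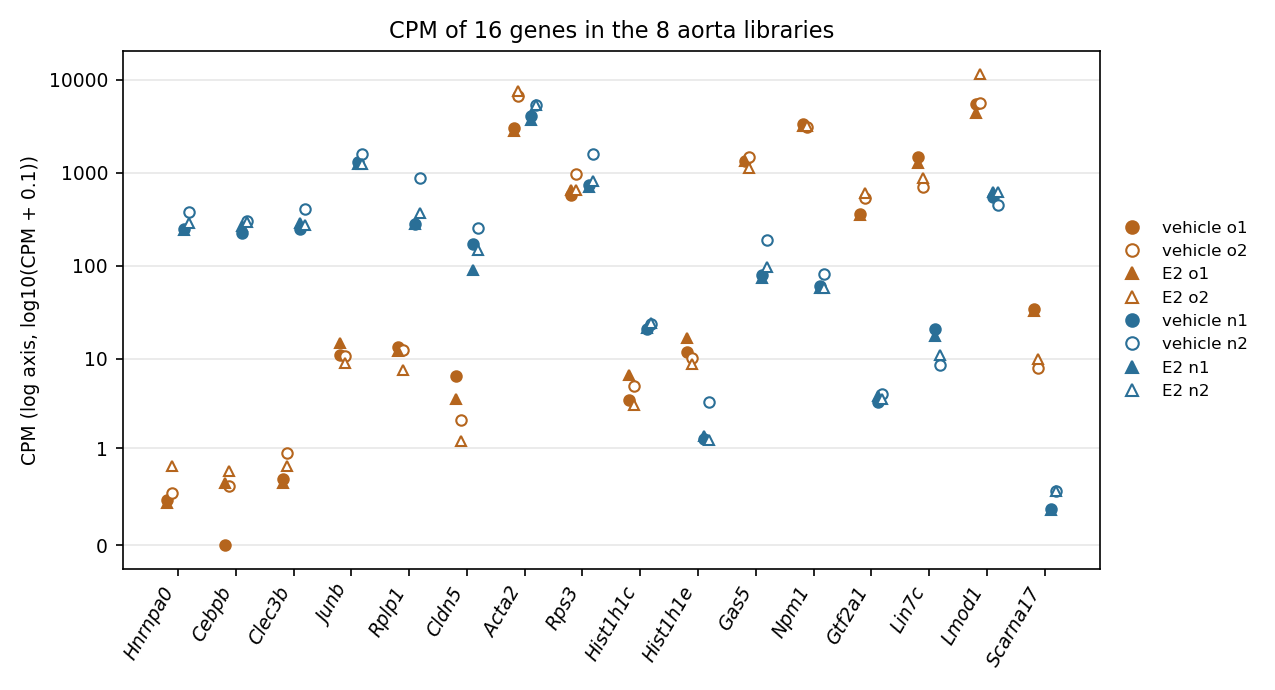
CPM of 16 genes named in the text (log axis, 0 shown at the bottom) in the 8 aorta libraries, 1 symbol per library. Circles are vehicle and triangles E2, filled symbols are o1 or n1 and open symbols o2 or n2. From left to right, the n libraries sit above the o libraries for Hnrnpa0 to Cldn5, overlap them for Acta2 and Rps3, sit above them for Hist1h1c and below them for Hist1h1e to Scarna17.

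Base composition ordered the difference across the whole transcriptome. Bins of GC content were added after the values had been seen, and they are a description. In the 10% of protein-coding genes with the lowest transcript GC content (32.6% to 42.1%) the median difference was -1.46, with 5.95% of 1328 genes called higher in n and 58.6% lower. In the 10% with the highest GC content (58.3% to 72.8%) the median was 2.71, with 84.9% higher and 1.51% lower. Across 13280 protein-coding genes Spearman's rank correlation of the difference with GC content was 0.63. It was 0.64 with the GC content of the coding sequence, 0.51 with that of the 3' UTR and 0.12 with that of the 5' UTR. These points are genes of the same 8 libraries and not independent replicates. Single genes departed from this order, and some of those named below ran against it.

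Length ran the other way. The shortest 10% of protein-coding transcripts (360 to 1333 bases) had a median difference of 1.14 and the longest 10% (6801 bases and more) -1.49, and the rank correlation with length was -0.38. Each order was also seen within classes of the other. Among genes in the lowest quartile of GC content the median went from -0.19 in the shortest quartile to -2.02 in the longest. Among those in the highest quartile of GC content it went from 2.41 to 1.43. Genes with a single exon had a median of 1.42 (297 genes), against -0.11 for genes of 6 exons or more (9528 genes).

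**Figure D2:**
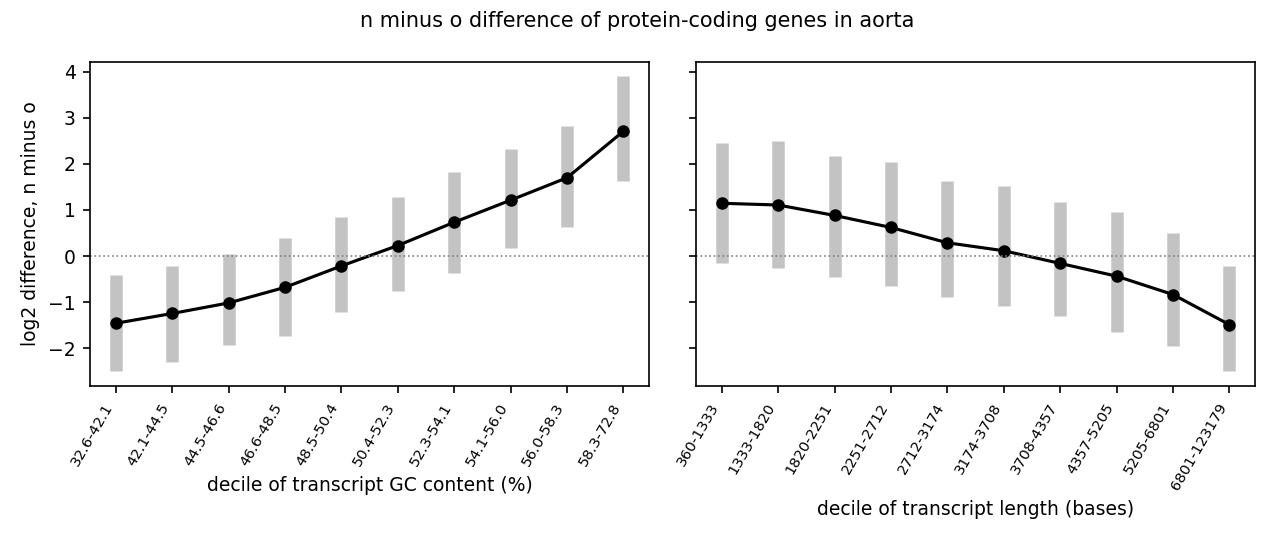
Median log2 difference (n minus o) of protein-coding genes in aorta by decile of transcript GC content (left) and transcript length (right), 1328 genes per decile. Points are medians and grey bars the interquartile range. The median rises from -1.46 to 2.71 along GC content and falls from 1.14 to -1.49 along length.

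The same order was seen library by library, and it also separated the n libraries from each other. In the lowest GC decile the median level relative to the mean of the 8 libraries was 0.52 to 0.79 (log2 of CPM + 1) in the o libraries and -0.95 to -0.41 in the n libraries. In the highest decile it was -1.04 to -0.93 in o and 0.85 to 1.23 in n. Vehicle n2 was at the outer end of both ranges. The n2 minus n1 difference had a rank correlation of 0.42 with GC content and -0.48 with length, so those libraries differed in these trends although few single genes passed, while o2 minus o1 had one of -0.02 with GC content. Kit, input and instrument have no measure in the files, and their part in the pattern was not tested.

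**Figure D3:**
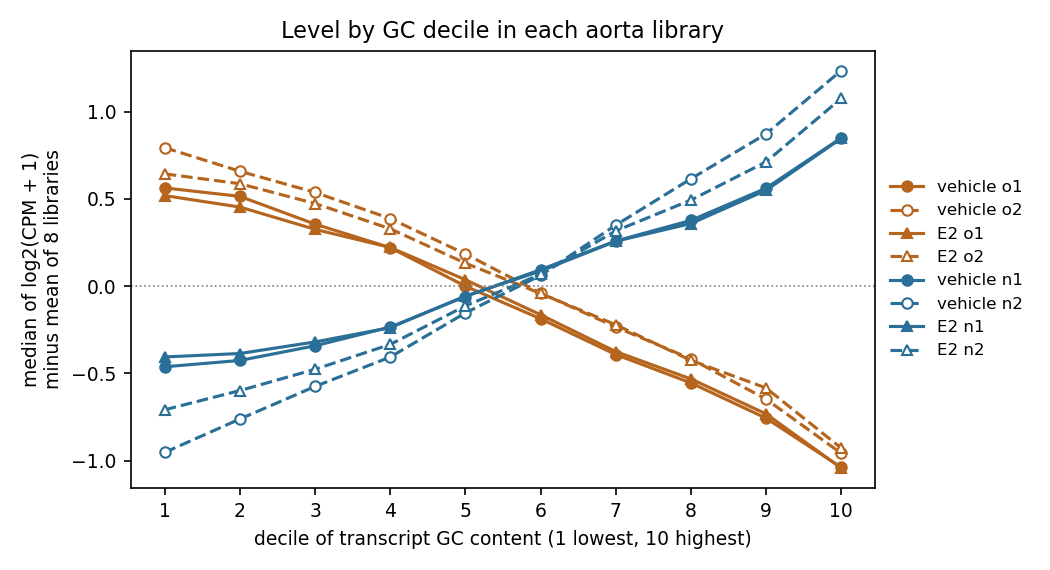
Median level of protein-coding genes by decile of transcript GC content, each library relative to the mean of the 8 aorta libraries (log2 of CPM + 1). The 4 o libraries fall with GC content and the 4 n libraries rise, and vehicle n2 and E2 n2 are steeper than vehicle n1 and E2 n1.

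Some genes were counted in 1 kind alone. A total of 39 genes had no count in any o library and at least 10 counts in each n library. Their median GC content was 59.8%, against 50.3% over all genes tested, and 23 of them lay in the highest GC decile. Prr7, a transmembrane adaptor protein, was at 9.67, 30.6, 10.1 and 12.4 CPM in vehicle n1, vehicle n2, E2 n1 and E2 n2, which is at least 165-fold higher than the o libraries (against a floor of 3 counts over the 4 o libraries). Tmem158, a membrane protein induced by Ras signalling, was at 6.12 to 11.4 CPM and at least 114-fold higher. A single gene, Trap1a, which encodes a tumour rejection antigen, had no count in n and at least 10 in each o library. Trap1a was named after its values were seen. Both rules use raw counts, and the o libraries were less deep in sum. A floor of 3 counts is 0.0819 CPM over the o libraries and 0.0401 CPM over the n libraries. The rule is thus harder to meet in o alone, and the numbers of genes do not compare the kinds. G530011O06Rik, with 270 counts in o and 0 in n (at least 184-fold), missed it, being at 1.46 CPM in E2 o1.

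The share of reads counted to ribosomal RNA overlapped between the kinds. Rn45s, the 45S precursor and the gene with the most counts in every library, took 3.38% to 6.20% of gene counts in o and 3.64% to 4.22% in n (exact permutation p = 0.314, adjusted 0.314). As a share of reads assigned to 1 gene, to none or to more than 1, it took 0.992% to 1.63% in o and 1.47% to 1.77% in n (exact permutation p = 0.229). The order of the means thus turned with the denominator. Scaled by TMM, Rn45s was at 44813 to 78057 CPM in o and 27173 to 32608 CPM in n, a difference of -1.08 ± 0.24 (edgeR, adjusted p = 0.0019). That call was lost without a scaling factor (-0.35), with upper quartile scaling (-0.87), in a fit of all 16 libraries (-0.99) and without the vehicle o1 library (-0.94). It was also lost when tested against a log2 difference of 1 with glmTreat (adjusted p = 0.27). The o1 libraries had higher shares (6.20% and 6.12%) than o2 (3.38% and 3.95%). The other ribosomal RNA listed, Rn4.5s, had no count in aorta.

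Replication-dependent histones, the core and linker histones made in S phase, went both ways. Of 67 listed genes 13 had enough counts to be tested. Of these, 3 were higher in n and 5 lower, beside 33% and 28.1% of all genes. Their median lay 1.12 below that of all genes. The mean level of 1 of the 13 was below 1 CPM in o alone, and of 4 in n alone. Such members may have entered the test through 1 kind, which would fix their direction. Hist1h4d, a gene for histone H4, was at 37.3, 16.6, 44.3 and 17.8 CPM in vehicle o1, vehicle o2, E2 o1 and E2 o2. In n it was at 0.140 to 0.381 CPM (-6.55 ± 0.49, adjusted p = 9.0e-07). Hist1h4c, also for H4, was at 3.26 to 7.50 CPM in o and 0.0465 to 0.666 CPM in n (-4.18 ± 0.53). With a stricter minimum of 50 counts the sign of the list's median changed, to 0.60 above that of all genes, so the median describes only the members that pass a given filter. It also lay between -1.36 (without vehicle n2) and -0.33 (without E2 o2) when single libraries were left out.

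A pair of linker histone genes of this list, both with the same stem-loop motif, moved in opposite directions. Hist1h1e, for histone H1.4, was at 8.80 to 16.8 CPM in o and 1.26 to 3.33 CPM in n (-2.77 ± 0.40), the highest n value being that of vehicle n2. Hist1h1c, for histone H1.2, was at 3.08 to 6.57 CPM in o and 20.9 to 24.3 CPM in n (2.32 ± 0.28). The kinds overlap for neither gene. Their stem-loops, with 5 bases on each side and the motif GGNNCTTTTCAGAGCC in capitals (sense strand, GENCODE M21), are shown for both.
Hist1h1e: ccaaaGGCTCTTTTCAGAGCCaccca
Hist1h1c: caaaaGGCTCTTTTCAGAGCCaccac
In the longest annotated transcript, 1153 bases follow the motif in Hist1h1e and 840 in Hist1h1c. Which end the sequenced mRNAs had is not known, and a part of the stem-loop in the difference was not tested. The motif occurs in 26 of the 67 listed histone genes and in 0.137% of all protein-coding genes matched. It occurs in 4 of the 13 tested, and those 4 were divided between higher (Hist1h1c), lower (Hist1h1e, Hist1h2be) and not called (Hist3h2a). The search took this exact pattern in annotated transcripts, so a gene without a match may still carry a stem-loop.

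Replication-independent histones, which replace the others outside S phase and whose mRNAs are mostly polyadenylated, were mostly higher in n. Of 11 tested, 9 were higher and none lower, beside 33% and 28.1% of all genes. The mean level of 5 of the 11 was below 1 CPM in o, and of none in n, so these 5 may have entered the test through their level in n, which would fix their direction. H3f3b, for the variant H3.3, was at 44.0 to 53.5 CPM in o and 228 to 322 CPM in n (2.44 ± 0.19). H2afx, whose product is phosphorylated at DNA breaks, was at 0 to 0.625 CPM in o and 7.06 to 10.7 CPM in n (6.09 ± 0.72). The macrohistone gene H2afy was at 17.3 to 27.1 and 68.3 to 116 CPM (1.85 ± 0.24). H1f0, a linker histone of resting cells, was at 29.0 to 35.6 CPM in o and 28.9 to 40.0 CPM in n and did not pass the test (0.16 ± 0.19). The difference between the 2 histone lists itself was not tested.

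Small nucleolar and Cajal body RNAs, which guide the modification of ribosomal and spliceosomal RNA, showed no common direction. Of 115 listed genes 24 were tested, 8 higher in n and 7 lower, and 16 did not overlap between kinds. These shares are close to those of all genes (33% higher, 28.1% lower, 67.1% not overlapping). The mean level of 8 of the 24 was below 1 CPM in o alone, and of 6 in n alone. Such members may have entered the test through 1 kind, which would fix their direction. Scarna17 was at 34.4 and 32.5 CPM in o1 and 7.95 and 9.94 CPM in o2, against 0.138 to 0.285 CPM in n (-6.63 ± 0.65). Snord104 was at 18.04 to 38.3 CPM in o and 1.48 to 5.61 CPM in n (-3.36 ± 0.41), and Snora3 differed by -3.05 ± 0.50. Snora64 was at 0 to 0.417 CPM in o and 1.94 to 2.70 CPM in n (3.83 ± 0.68). Scarna2 had no count in o and 0.600 to 1.71 CPM in n, at least 11.1-fold higher. A read on a small RNA of an intron can also come from the unspliced host transcript. Spliceosomal and other small RNAs had too few counts for a test in any of 10 genes.

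The host genes of snoRNAs, whose spliced exons are mostly short-lived RNAs, were lower in n where they were called. Gas5, the most studied of them, was at 1348, 1462, 1326 and 1138 CPM in the o libraries and 79.8, 190.4, 73.4 and 96.5 CPM in n, with the highest n value in vehicle n2 (-3.62 ± 0.30, adjusted p = 1.5e-06). Snhg1 was at 289.5 to 583 CPM in o and 68.8 to 134 CPM in n (-2.09 ± 0.27). Snhg4 differed by -1.90 ± 0.31. Snhg12 overlapped between kinds (57.3 to 98.4 and 76.7 to 155 CPM) and did not pass the test (0.56 ± 0.24). These 4 are all that could be tested of 14 listed, and the other 10 were at 23 counts or fewer in each kind. Of the 4, 3 were lower in n and 0 higher, beside 28.1% and 33% of all genes. The 3 matched to an annotated transcript had a median GC content of 42.3%, in a decile whose median difference was -1.25.

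Other long non-coding RNAs leaned the same way. Among 217 tested genes that GENCODE classes as long non-coding, 29 were higher in n and 77 lower (13.4% and 35.5%, against 33% and 28.1% of all genes). Their median difference was -0.50 and their median GC content 47.3%. Protein-coding genes in the same GC deciles had a median difference of -0.68, taken as the median over these genes. A lean beyond that of base composition was not tested. Of a list of well-known ones 11 were tested, 1 higher and 5 lower. Meg3, an imprinted RNA expressed from the maternal allele, was at 207 to 297 CPM in o and 43.2 to 99.5 CPM in n, 4.01-fold lower by the fit. Dnm3os, the precursor of miR-199a and miR-214 in mesenchymal cells, was at 21.03 to 35.6 and 1.66 to 4.28 CPM (-3.35 ± 0.31). Tsix, the antisense partner of Xist, was at 515 to 726 and 39.8 to 81.1 CPM (-3.46 ± 0.26). Xist itself had no count in any aorta library, and no source used here gives the strand setting of the counting, so Tsix and Xist reads cannot be told apart. Mir22hg, the host of miR-22, was the exception, at 40.6 to 55.8 CPM in o and 131 to 175 CPM in n (1.72 ± 0.18). Malat1 had 21 counts in o and 1 in n, and Neat1 12 and 2, too few to test.

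MicroRNA genes are counted here as genomic hairpins, so their reads do not measure mature microRNA. They may come from precursors, host transcripts or other RNA of the same sequence, which was not tested. Of 1086 genes with such names 32 were tested, 2 of them the host genes Mir22hg and Mir17hg. Of the 32, 14 were higher in n and 6 lower, beside 33% and 28.1% of all genes. The mean level of 9 of the 32 was below 1 CPM in o alone, and of 7 in n alone. Such members may have entered the test through 1 kind, which would fix their direction. Mir546 was at 0.912 to 1.87 CPM in o and 24.9 to 34.1 CPM in n (4.29 ± 0.29). Mir6236 had 304 to 565 CPM in o and 672 to 769 CPM in n, with no overlap, but its difference of 0.74 ± 0.22 was under the threshold of 1. The mature products of a pair that moved in opposite directions are given from RefSeq (GRCm38.p6), with the seed (bases 2 to 8) in capitals.
miR-125b-5p: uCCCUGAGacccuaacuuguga
miR-23a-3p: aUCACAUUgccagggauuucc
Mir125b-1, whose mature product is abundant in vessels, was at 9.59, 4.68, 10.6 and 1.85 CPM in the o libraries and at 0 to 0.476 CPM in n (-5.06 ± 0.78). Mir23a, part of a cluster active in endothelium, had no count in o and 0.507 to 1.43 CPM in n, at least 10.1-fold higher. Levels this low rest on few reads.

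**Figure D4:**
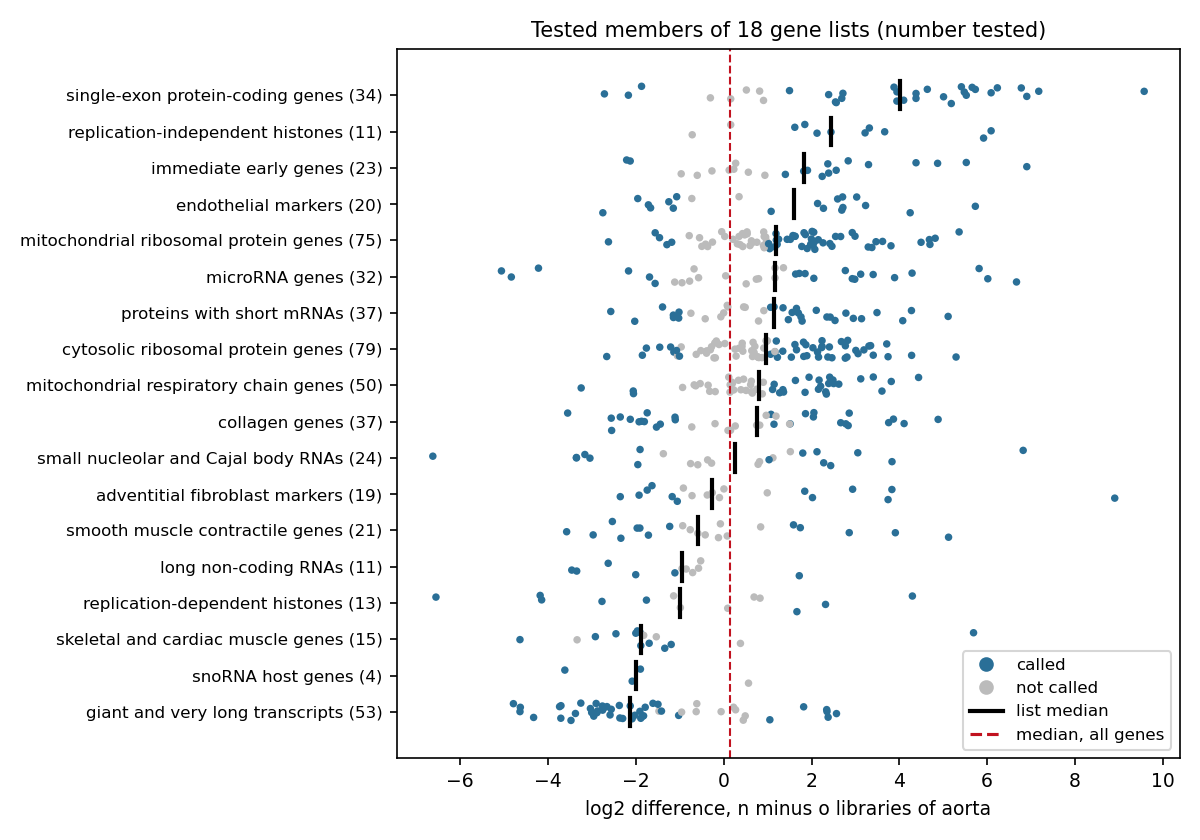
Log2 difference (n minus o) of the tested members of 18 gene lists, with the number tested. Blue points passed the test and grey points did not, black bars are list medians and the dashed red line is the median of all genes (0.13). The medians of single-exon genes and replication-independent histones lie to the right, both with members below 1 CPM in o, that of giant transcripts to the left, and most lists hold called genes on both sides.

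Giant and very long transcripts were mostly lower in n. Of 53 tested, 38 were lower and 6 higher, beside 28.1% and 33% of all genes. The median lay 2.26 below that of all genes. Ahnak, a very large scaffold protein, was at 7237 to 11216 CPM in o and 1757 to 2314 CPM in n (-2.30 ± 0.22). Dst, a linker of the cytoskeleton, was at 3395 to 6480 and 841 to 1279 CPM (-2.13 ± 0.27). Ttn, the sarcomere protein titin, was at 172, 64.5, 28.8 and 38.3 CPM in o and 1.20 to 5.71 CPM in n (-4.64 ± 0.45). Plec, a cytoskeletal linker like Dst but with 61.3% GC in its transcript against 49.5%, was at 194 to 283 CPM in o and 1113 to 1963 CPM in n (2.57 ± 0.24). Flna, the actin crosslinker filamin A, overlapped between kinds (0.27 ± 0.25). Together the list took 3.29% to 5.36% of gene counts in o and 2.65% to 3.13% in n.

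Short mRNAs were more often higher. Of 37 genes for small secreted or cytosolic proteins 20 were higher in n and 7 lower, beside 33% and 28.1% of all genes. Mt1, a zinc-binding metallothionein, was at 74.2 to 139 CPM in o and 1244 to 3584 CPM in n (4.28 ± 0.39), with the highest value in vehicle n2. Fabp4, the fatty acid carrier of fat cells and capillaries, was at 3659 to 4685 CPM in o and 1450 to 2016 CPM in n (-1.39 ± 0.20). S100a11, a calcium-binding protein, was lower as well (-2.57 ± 0.29). The transcript of Fabp4 has 40.3% GC and that of Mt1 52.9%.

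Ribosomal protein genes, which are short and highly expressed, were called higher in n for 36 of 79 tested and lower for 8. Of all genes 33% were higher and 28.1% lower. The list's median lay 0.83 above that of all genes. The summed share of the list in gene counts was 0.277% to 0.426% in o and 0.753% to 1.80% in n. Rplp1, of the ribosomal stalk, was at 13.3, 12.4, 12.2 and 7.48 CPM in the o libraries and 285, 884, 281 and 371 CPM in n (5.29 ± 0.39). Rpl8 was at 73.0 to 128 and 747 to 1818 CPM (3.35 ± 0.31). Rpl4 was lower, at 1994 to 2726 CPM in o and 843 to 1635 CPM in n (-1.21 ± 0.25), and this call was lost with upper quartile scaling (-0.98), in the vehicle libraries alone (adjusted p = 0.058) and with glmTreat (adjusted p = 0.14). Rps3 overlapped between kinds (0.42 ± 0.27). In each of these 4 genes the highest n value was that of vehicle n2. Most of these genes have processed pseudogenes, and how reads were divided among copies is not given in the sources used here.

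Proteins of the mitochondrial ribosome followed, with 42 of 75 tested higher in n and 5 lower, beside 33% and 28.1% of all genes. Mrps34 was at 0.417 to 1.14 CPM in o and 30.8 to 49.5 CPM in n (5.36 ± 0.33). Mrpl39 was at 95.9 to 176 and 17.4 to 26.5 CPM (-2.63 ± 0.27). Among nuclear genes of the respiratory chain 23 of 50 were higher and 3 lower, beside the same shares of all genes. Subunits of the same enzyme parted: Atp5d of ATP synthase was at 8.94 to 10.6 CPM in o and 155 to 295 CPM in n (4.44 ± 0.26), and Atp5h of the same complex at 174 to 309 and 17.3 to 42.2 CPM (-3.25 ± 0.34). Cox6b1, of cytochrome oxidase, was lower (-2.06 ± 0.35).

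A list of 41 well-known genes with a single coding exon was mostly higher in n. Among all 297 tested protein-coding genes with 1 exon the median difference was 1.42, with 54.2% higher and 20.2% lower. Of the list's 34 tested members, 26 were higher in n and 3 lower, beside 33% and 28.1% of all genes. The median difference was 4.02, or 3.94 with genes at 0 counts in o set to their lower bound. The mean level of 8 of the 34 was below 1 CPM in o, and of 2 in n, so these members may have entered the test through 1 kind, which would fix their direction. Their share of gene counts was 0.0436% to 0.0449% in o and 0.659% to 0.814% in n. Rhob, a GTPase of endosomes and stress fibres, was at 11.7, 10.2, 14.4 and 11.3 CPM in the o libraries and 391, 439.8, 427 and 455 CPM in n (5.18 ± 0.22). The AP-1 subunit Jund was at 23.3 to 49.0 and 537 to 1132 CPM (4.38 ± 0.36). The median GC content of the tested members was 57.4%, and the genes in the decile of GC content of the median member had a median difference of 1.70.

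Immediate early genes, which are switched on within minutes of handling or stimulation, were more often higher in n. Of 23 tested, 13 were higher and 2 lower, beside 33% and 28.1% of all genes. The median lay 1.69 above that of all genes. Junb was at 10.8, 10.6, 14.6 and 8.98 CPM in the o libraries and 1298, 1573, 1241 and 1244 CPM in n (6.90 ± 0.27, adjusted p = 6.4e-08). Ier2 was at 4.40 to 6.57 and 185 to 275 CPM (5.52 ± 0.26). Egr1 was at 3039 to 7000 CPM in o and 744 to 1103 CPM in n (-2.21 ± 0.29). Dusp1, a phosphatase of the same early response, was at 452 to 867 and 334 to 473 CPM and was not called (-0.60 ± 0.24). The transcripts of Junb and Ier2 hold 62.6% and 60.9% G and C, and that of Egr1 57.3%. Egr1 ran against the trend with GC content, since genes of 56.0% to 58.3% had a median difference of 1.70. Among inflammatory cytokines and adhesion molecules 11 of 24 were higher and 5 lower, and among heat shock and unfolded protein genes 6 and 4 of 19. The counts were 9 and 3 of 22 for hypoxia and glycolysis genes, and 4 and 8 of 31 for cell cycle genes. They are to be read against the same 33% and 28.1%, and nothing particular to these lists is drawn from them.

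Markers of the vessel wall were called in both directions within each cell type, as genes were in general (33% higher, 28.1% lower, 67.1% not overlapping). For smooth muscle, 5 of 21 tested genes were higher in n and 8 lower, a share called close to the 61% of all genes. Lmod1, a nucleator of actin filaments, was at 5442, 5593, 4391 and 11408 CPM in the o libraries and 448 to 618 CPM in n (-3.58 ± 0.30). Its transcript has 53.5% GC, in a decile whose median difference was 0.73. Cald1, the actin-binding protein caldesmon, was at 3745 to 5821 and 508 to 642 CPM (-2.97 ± 0.23). Sost, the Wnt inhibitor sclerostin, was at 1.25 to 5.46 CPM in o and 57.2 to 139 CPM in n (5.12 ± 0.41).

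Among endothelial markers 11 of 20 were higher and 7 lower, and 19 did not overlap between kinds, beside 67.1% of all genes. Cldn5, the tight junction protein claudin-5, was at 1.23 to 6.46 CPM in o and 89.4 to 256 CPM in n (5.73 ± 0.44). Egfl7, a secreted endothelial factor, was at 7.49 to 9.48 and 105 to 278 CPM (4.25 ± 0.32). Ptprb, the phosphatase of the Tie2 and VE-cadherin system, was at 191 to 432 and 31.8 to 55.9 CPM (-2.75 ± 0.32). Pecam1 (CD31) was at 287 to 518 and 210.4 to 269 CPM and did not reach the log2 threshold (-0.73 ± 0.24).

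Adventitial fibroblast markers counted 6 higher and 6 lower of 19, and collagen genes 14 and 13 of 37, beside 33% and 28.1% of all genes. The mean level of 6 of the 37 collagen genes was below 1 CPM in o alone, and of 2 in n alone, which may fix their direction. Col1a2, a chain of type I collagen, was at 7491 to 11794 CPM in o and 1529 to 2327 CPM in n (-2.36 ± 0.25). Its transcript has 55.7% GC, in a decile whose median difference was 1.21. Col18a1, of the basement membrane, was at 375 to 578 and 1462 to 1695 CPM (1.86 ± 0.21), and Col16a1 at 4.14 to 5.28 and 68.2 to 94.5 CPM (4.11 ± 0.22). Markers of other tissues that can adhere to an aorta were called as follows: white fat 8 higher and 4 lower of 17, brown fat 9 and 2 of 17, skeletal and cardiac muscle 1 and 10 of 15, macrophages 7 and 4 of 22, B and T lymphocytes 6 and 2 of 23, hepatocytes 5 and 8 of 22, nerve 7 and 5 of 19, red blood cells 0 and 2 of 3. These counts are to be read against the same 33% and 28.1%, and nothing particular to a cell type is drawn from them. Globin genes were at 0 or 1 count in every library. The median of the lymphocyte list changed sign without vehicle n2 (-0.72 relative to all genes, against 0.39 with all libraries) and without vehicle o1 (-0.05). Hepatocyte genes lay between -1.59 (without vehicle o2) and -0.40 (without vehicle o1), against -1.05. White fat markers lay at 0.48, at 0.15 without vehicle n1, at 0.21 without E2 n1 and at 0.79 without vehicle n2. Lymphocyte markers summed to 58.6 to 247 CPM in o and 45.1 to 567 CPM in n. Lck, a kinase of T cells, was at 1.94 to 5.15 CPM in o and at 6.92, 60.4, 25.4 and 8.47 CPM in n, vehicle n2 being the highest (2.74 ± 0.61). Its call was lost with the replicate block (2.07, adjusted p = 0.19).

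Genes used as references were called in both directions. Of 16 housekeeping genes 6 were higher in n, 6 lower and 4 not called, beside 33% and 28.1% of all genes called. Actb was at 818 to 1572 CPM in o and 1387 to 1695 CPM in n and did not pass the test (0.47 ± 0.25), though without a scaling factor it was called higher (1.20). Eef1a1, of translation elongation, was at 249.7 to 337 and 725 to 935 CPM (1.45 ± 0.19). Tbp, the TATA-binding protein, was at 84.8 to 111 and 8.66 to 14.1 CPM (-2.93 ± 0.23). Gapdh was at only 6.78 to 10.2 and 2.13 to 5.04 CPM, a level that reads shared with its many pseudogenes make uncertain (-1.39 ± 0.33), and its call was lost in the vehicle libraries alone (adjusted p = 0.063) and with glmTreat (adjusted p = 0.085).

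The response to E2 was compared between the kinds as an interaction of kind and treatment. No gene of 13698 passed (0%) with edgeR, with or without the suffix as a fixed block, nor with DESeq2 or limma voom, which were run without it. In the edgeR fit 99 genes (0.723%) had an unadjusted p under 0.05. With 2 libraries per kind and treatment, this does not show that the responses are alike. Pgr, the progesterone receptor and a classical target of the estrogen receptor, was at 2.92 and 4.95 CPM with vehicle and 10.9 and 17.9 CPM with E2 in the o libraries. In n it was at 2.47 and 2.38 CPM with vehicle and 11.4 and 8.84 CPM with E2. The 4 differences between libraries of the same suffix were 1.61, 1.67, 1.84 and 1.54 (log2 of CPM + 1, o1, o2, n1, n2), all upward, and the interaction was 0.22 ± 0.63. Greb1, another direct target, rose from 0.834 and 0.802 to 2.37 and 3.17 CPM in o and from 0.237 and 0.571 to 3.28 and 2.33 CPM in n, with an interaction of 1.09 ± 0.93 that did not pass.

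Without the vehicle n2 library 1 gene passed, Tg (-9.90, edgeR, adjusted p = 5.1e-05). It encodes thyroglobulin of the thyroid and was at 757 CPM in vehicle n1 and 0.884 to 1.90 CPM in the other n libraries.

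Of 9 classical estrogen targets tested, the receptor included, 2 were higher in n, 2 lower and 5 not called (Pgr, Greb1, Ltf, Xbp1 and Myc). Of all genes 61% were called, and nothing particular to this list is drawn from 9 genes. Esr1, which encodes estrogen receptor alpha, was at 11.5 to 23.3 CPM in o and 4.37 to 5.83 CPM in n (-1.64 ± 0.28). Nrip1, a corepressor, was at 155 to 259 and 23.1 to 41.6 CPM (-2.84 ± 0.26). Igfbp4, an IGF-binding protein, was at 2.29 to 4.68 and 82.6 to 138 CPM (5.09 ± 0.31), and Cxcl12, a chemokine, differed by 2.38 ± 0.30. Htra3, a secreted protease chosen for the small p of its interaction, was at 7.71 to 9.30 CPM in all o libraries and rose in n from 101 and 78.1 CPM with vehicle to 265 and 245 CPM with E2. Its interaction was 1.33 ± 0.43 and did not survive adjustment (edgeR, adjusted p = 1.0).

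The difference between kinds was shared to a large extent with liver, where 8147 of 11726 genes tested (69.5%) passed the same thresholds. Of 11118 genes tested in both tissues, 5645 were called in the same direction in both, which is 81.8% of the aorta calls and 72.9% of the liver calls, and 52 were called in opposite directions. As an interaction over all 16 libraries, 2666 of 14190 genes had a higher n minus o difference in aorta (18.8%) and 1272 a lower one (8.96%), together 27.8%. The suffix used as a replicate block reduced this to 1473 and 884. The median of the interaction was 0.41. With the size factors of DESeq2 the calls were 1880 higher and 1788 lower, so the balance of directions depends on the scaling.

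Among the genes with the smallest p of that interaction, Procr, the endothelial protein C receptor, was at 27.0 to 52.6 CPM in o and 233 to 437 CPM in n of aorta (3.14 ± 0.22), against 0.17 ± 0.36 in liver. Adamts4, a protease of the extracellular matrix, differed by 2.64 ± 0.20 in aorta and -0.80 ± 0.25 in liver. Cnn1, the smooth muscle protein calponin, differed by -1.23 ± 0.20 in aorta (809.9 to 1017 CPM in o, 331 to 472 CPM in n) and by 2.83 ± 0.61 in liver. The liver value rests on few reads, at 0.305 to 1.33 CPM in o and 3.94 to 7.60 CPM in n. Its aorta call was lost in the E2 libraries alone (-0.91), with upper quartile scaling and with glmTreat (adjusted p = 0.088). Igf1, a growth factor made mainly by liver, differed by -4.14 ± 0.23 in aorta and -1.44 ± 0.24 in liver. Trim44 differed by -4.13 ± 0.23 in aorta and -7.82 ± 0.42 in liver. Scd1, a fatty acid desaturase, was not called in aorta (-0.91 ± 0.27) and differed by -4.24 ± 0.30 in liver. The aorta difference passed the threshold without E2 n1 (-1.19), without E2 o1 (-1.04) or without E2 o2 (-1.05).

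**Figure D5:**
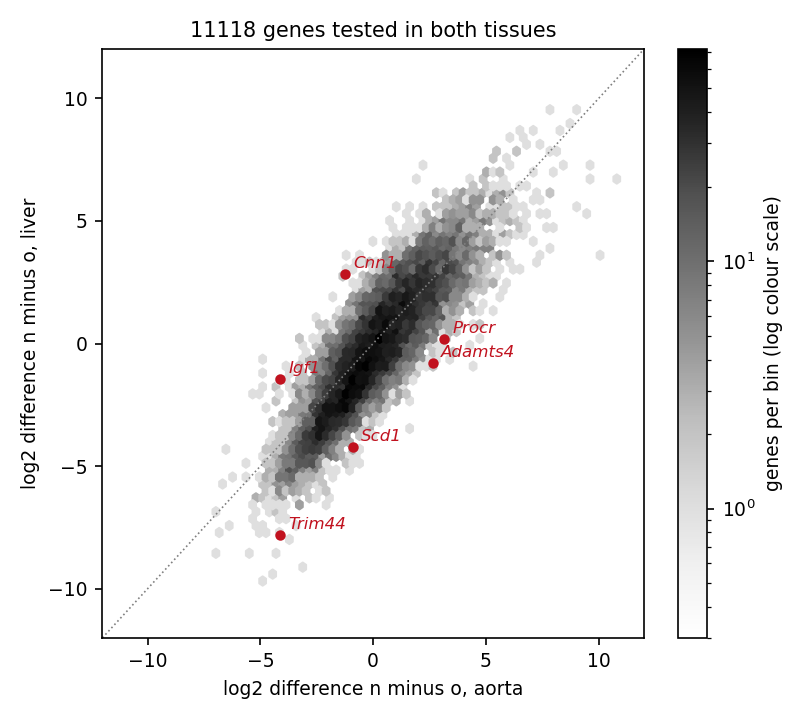
Log2 difference (n minus o) in aorta (x axis) and liver (y axis) for the 11118 genes tested in both, shaded by the number of genes per bin, with 6 genes named in the text in red. Most genes lie along the dotted line of equal differences. Procr and Adamts4 lie below it, Cnn1 and Igf1 above it, and Trim44 and Scd1 are lower in liver.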

How the data were processed

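The authors deposited whole-number reads per gene symbol (24011 genes), entered as estimated counts because each deposited column ends in a percentage line. All gene values were whole, so rounding changed nothing. Per the submitters' processing notes, Bowtie 0.12.5, HTSeq 0.4.5p7, edgeR 3.4.2 and build mm9 were used. Annotation and strand setting: not given in the sources used here. The 8 lines without a gene name were left out of all totals tested; reads outside genes took 52.9% to 73.6% of an aorta library.

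The test was edgeR 4.0.16 under R 4.3.3 (glmQLFit, TMM, filterByExpr by kind with minimum count 10 and total 15), with treatment as covariate. A call needs a Benjamini-Hochberg adjusted p under 0.05 and an absolute log2 difference over 1. DESeq2 1.42.0 and limma 3.58.1 served as alternatives, and the fit was checked on simulated counts. Bins of GC content and length were added after the values were seen.

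Vehicle and E2 libraries of the same suffix deviated together (correlation 0.49 within o and 0.42 within n; 1 value per kind, since its suffixes mirror each other), so the suffix was tried as a block.

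GC content, length, exons and biotype come from the longest GENCODE M21 transcript (GRCm38), matched by symbol for 22637 genes and by RefSeq synonym for 992, with 382 unmatched. The counts are on mm9, so no coordinates are given. A name pattern for antisense genes also matched coding genes and was not used. Genes were named by this rule, of which the text uses a part: Rn45s, all tested members of lists of up to 6, the 4 most abundant and 2 most changed per direction of other lists, the 12 greatest differences per direction, and the smallest p of each interaction. Others are said to be chosen by their values. Members and lists were chosen with earlier results of these data known.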

Additional observations from a re-analysis of the deposited data

Results flagged for a closer look

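For genes named in the text, the 4 libraries of a kind were examined for 1 library far from the other 3. This held in 20 of 188 such groups. Chance gives about 1 in 20 for independent groups, which these are not, since they share libraries. Tg, Myh6 and Glycam1 were also chosen for the small p of their E2 interaction, which 1 odd library can produce. The count is therefore a description.

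The vehicle n2 library was the one apart in 14 of these. It was above the other n libraries for Prr7 (30.6 CPM against 9.67 to 12.4), Hist1h1e (3.33 against 1.26 to 1.38), H3f3b (322 against 228 to 243), H2afy (116 against 68.3 to 76.3), Snora3 (1.52 against 0.231 to 0.379) and Junb (1573 against 1241 to 1298). The same held for the snoRNA hosts Snhg12 (155 against 76.7 to 89.2) and Snhg4 (15.4 against 6.18 to 6.70), for the ribosomal protein genes Rpl4 (1635 against 843 to 947), Rplp1 (884 against 281 to 371) and Rps3 (1608 against 709 to 814), and for Fabp4 (2016 against 1450 to 1495). Glycam1, a mucin-like protein of lymph node vessels and mammary gland, was at 567 CPM there and at 0 to 1.52 in the other n libraries. Tbp was lower there (8.66 against 13.3 to 14.1).

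Other libraries stood apart for single genes. Tg was at 757 CPM in vehicle n1 and at most 1.90 in the others. Myh6, the cardiac myosin heavy chain, was at 123 CPM in vehicle o1 (others 0.912 to 5.48) and at 4.65 in E2 n2 (others 0.0461 to 0.616). H2afx was at 0.625 CPM in vehicle o1 (others up to 0.0880), Snhg12 at 98.4 in vehicle o2 (others 57.3 to 59.0) and Col18a1 at 578 in E2 o2 (others 375 to 399).

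The n minus o difference itself differed between aorta and liver for 3938 genes by the interaction of kind and tissue (edgeR, 8 libraries per tissue). The aorta minus liver value was 3.03 for Procr, 3.46 for Adamts4, 3.69 for Trim44, 3.36 for Scd1, -4.12 for Cnn1 and -2.66 for Igf1.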

How the results depend on the processing

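Calls between kinds in aorta were 4514 higher and 3846 lower, and stayed within 1.5 times of these under every alternative run except that no scaling gave 2237 lower. The aorta minus liver calls became 4345 higher and 659 lower without scaling, 2060 lower with DESeq2 and 1473 higher with the replicate block. The replicate block gave 4048 and 3650 calls between kinds, 4634 and 3964 when libraries of a suffix were summed, and 0 for the E2 interaction. It ended the call of Lck and no other of the named genes' calls given in the text. Leaving out 1 library gave 0 to 1 lower calls for that interaction (1 without vehicle n2), -0.34 to 0.23 for Acta2 and -0.25 to 0.63 for the Pgr interaction. Acta2 also changed sign with all 16 libraries (0.029), voom with the block (0.0045) and without (0.0055), no scaling (0.68) and upper quartile scaling (0.15). Without scaling Dusp1 was at 0.17 and Pecam1 at 0.047, the calls of Rn45s, Rpl4, Fabp4, Gapdh, Esr1 and Cnn1 were lost, and Snhg12, Mir6236, Rps3, Flna and Actb were called higher. List medians relative to all genes moved with the filter: replication-dependent histones -0.13 without and 0.60 with the stricter one, small nucleolar RNAs 0.55 and -3.45, snoRNA hosts 0.33 without, ribosomal proteins 1.63 and collagens 0.17 with the stricter. Leaving out 1 library gave -1.36 to -0.33 for replication-dependent histones, -0.81 to 0.68 for small nucleolar RNAs, 0.59 to 1.49 for microRNAs, -0.59 to -0.12 for adventitial markers, -0.72 to 0.88 for lymphocyte markers, -1.59 to -0.40 for hepatocyte genes and 0.15 to 0.79 for white fat markers. The Rn45s share difference was 0.275 over reads assigned to 1 gene, to none or to more than 1. Testing against a log2 difference of 1 with glmTreat ended the calls of Rn45s, Rpl4, Gapdh and Cnn1. Beyond fewer genes or samples, the cause was not tested. Low counts limit small RNAs and histones most.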
